A study of Mus musculus with 10 samples.

Results

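Müller glia are the radial support cells of the retina, and 10 genes of their resting functions are described here across 10 libraries of mouse neuroretina. The members are Glul and Slc1a3 (glutamate handling), Kcnj10 (potassium), Aqp4 (water), Car14 (acid-base balance), Apoe and Clu (lipid carriers), Dkk3 (a secreted protein), and the transcription factors Sox9 and Hes1. They were chosen by name, and all 10 had 1 row each among the 57186 Ensembl genes of the deposited count table. The retinas came from female C57BL6/JRj mice killed on day 14 after intravitreal injection, that is, into the gel that fills the eye. The CNP group (5 libraries) received graphitic carbon nitride nanoparticles (labelled hg-C3N4; 1 µL, 1 mg/mL) suspended in phosphate-buffered saline, PBS, and the PBS group (5 libraries) received PBS alone. Injection is thus shared by both groups, and no uninjected eye was analysed here. The series design counts mice in the CNP group (5) but eyes in the PBS group (5), and nothing further in the labels ties libraries to animals. If libraries share an animal, the p-values measure only the spread between these libraries. Each library is named by its group and its labelled number.

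Müller cells span the whole depth of the retina and envelop its neurons. They take up glutamate released by photoreceptors and bipolar cells through the transporter GLAST, encoded by Slc1a3. Glutamine synthetase, encoded by Glul, turns it into glutamine, which neurons reuse. Potassium released by active neurons leaves through the inward rectifier Kir4.1 (Kcnj10), which lies beside the water channel aquaporin 4 (Aqp4) on the endfeet at vessels and the vitreous. Loss of several of these proteins is a known feature of stressed Müller glia. Several members are known in other cells too: Slc1a3, Aqp4, Glul, Apoe and Clu in astrocytes, Apoe in microglia, and Car14 in the pigment epithelium.

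Total counts ran from 3328518 to 5428697 per library, averaging 4467648 ± 907723 for PBS and 4395835 ± 671860 for CNP (SD, n = 5 each). Levels are given as CPM, read counts relative to the library total, scaled by TMM, a factor that evens out differences in RNA composition. The 10 members together held 0.451% ± 0.105 of all counts for PBS and 0.455% ± 0.0752 for CNP (SD, n = 5 per group). In bulk tissue, fewer cells of a type and less RNA per cell cannot be told apart. Of 12 further Müller glia markers all had counts, led by Dbi (725 CPM on average) and the retinaldehyde-binding protein gene Rlbp1 (639 CPM). Marker genes of neighbouring tissue had counts, and where that RNA came from was not tested. Pigment epithelium genes summed to 473 to 2391 CPM in PBS and 912 to 2469 CPM in CNP. Lens genes summed to 190.0 to 7415 CPM in PBS and 246 to 3527 CPM in CNP.

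The promoters of 3 members are printed because their genes moved differently over the libraries: Slc1a3 varied widely, Glul narrowly, and Car14 against most others. They come from RefSeq on GRCm38.p6, which had entries for 5 of the 10 members (7 start sites, 3 of them of Apoe), and each runs from 250 bases before to 50 after a start site, 5′ to 3′ on the gene's strand. Capitals mark the N-box CACNAG, a site that HES proteins such as HES1 are known to bind, on either strand. The Slc1a3 window is chr15:8710758-8711057 (minus strand), the Glul window chr1:153899679-153899978 (plus strand) and the Car14 window chr3:95904636-95904935 (minus strand).
Slc1a3: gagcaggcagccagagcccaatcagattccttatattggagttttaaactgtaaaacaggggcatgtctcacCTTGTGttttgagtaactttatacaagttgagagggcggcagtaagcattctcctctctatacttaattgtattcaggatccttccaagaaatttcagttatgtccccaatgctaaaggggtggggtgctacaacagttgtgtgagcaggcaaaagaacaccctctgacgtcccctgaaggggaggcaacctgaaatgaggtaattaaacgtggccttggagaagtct
Glul: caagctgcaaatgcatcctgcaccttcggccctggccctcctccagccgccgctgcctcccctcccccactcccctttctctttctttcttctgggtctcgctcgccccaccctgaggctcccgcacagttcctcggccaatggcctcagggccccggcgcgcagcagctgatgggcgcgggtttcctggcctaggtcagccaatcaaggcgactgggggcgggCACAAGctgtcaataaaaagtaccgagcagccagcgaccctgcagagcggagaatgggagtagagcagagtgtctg
Car14: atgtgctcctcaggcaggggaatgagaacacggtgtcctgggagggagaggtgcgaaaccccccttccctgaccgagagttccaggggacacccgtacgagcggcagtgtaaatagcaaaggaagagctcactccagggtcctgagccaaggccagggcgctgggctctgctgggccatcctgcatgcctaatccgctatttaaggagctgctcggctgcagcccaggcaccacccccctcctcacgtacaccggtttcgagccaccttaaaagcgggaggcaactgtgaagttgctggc

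The Slc1a3 window had 45.3% G and C and 3 CG pairs, against 64.3% and 17 in Glul and 61.0% and 13 in Car14. The median of all 32851 RefSeq promoters of this length was 52.7% and 7. An N-box stood once in the Slc1a3 and Glul windows, at positions -178 (on the strand opposite the gene) and -26 from the start site, and these letters were not in the Car14 window. Among all promoters 42.5% held one. The RBPJ core TGGGAA (both strands, in 25.6% of all promoters), the SOX core AACAAT (both strands, 10.7%), the E-box CACGTG (the same on both strands, 7.15%) and the TATA box TATAAA (gene strand, 8.32%) were in none of these 3 windows. A match describes letters only.

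Abundance differed widely between the 10 genes. Per kilobase of annotated exon length, Apoe stood highest at 369.9 ± 45.8 CPM per kilobase (SD over all 10 libraries), followed by Glul at 309 ± 43.6, Clu at 304 ± 46.6 and Car14 at 239 ± 31.3. Neighbours among these 4 overlapped in their library ranges. Dkk3 followed at 133 ± 29.3 CPM per kilobase, with no library as high as the lowest of Car14 (171 against 187). Hes1 came next, its highest library level with the lowest of Dkk3 (96.7 and 96.5 CPM per kilobase). Hes1 at 59.6 ± 18.3 and Slc1a3 at 42.8 ± 12.7 CPM per kilobase overlapped with each other. Sox9 at 15.2 ± 4.56, Aqp4 at 4.74 ± 1.52 and Kcnj10 at 1.78 ± 0.397 CPM per kilobase each lay in a range of its own. Per the labels' protocols, barcodes sat on the primers that copied the poly(A) RNA. If reads thus come from transcript ends alone, the order without length scaling is the suitable one. In that order Clu led at 1046 CPM, then Glul at 1026 and Apoe at 791, with overlapping library ranges. Slc1a3 (8537 bases of exon) then passed Hes1 (2037 bases). The channel genes Aqp4 and Kcnj10 were scarce: Kcnj10 had 434 counts in all 10 libraries, 20 to 62 per library, and Aqp4 had 1392.

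The design sets retinas given CNP against retinas given PBS, and no member passed the test. In edgeR's quasi-likelihood test with Benjamini-Hochberg adjustment, 0 of the 10 members passed an adjusted p of 0.05, beside 0% of all 11499 genes tested; the adjusted p was 0.9997 for each member. At an unadjusted p under 0.05 there were 0 members and 1.19% of all genes (DESeq2 and limma-voom likewise gave 0 members by either count). Log2 fold changes, CNP against PBS, were positive for Glul, Kcnj10, Car14 and Apoe and negative for the other 6. Only Glul, Kcnj10 and Car14 had the same sign in all 20 alternative settings; Apoe and the other 6 turned in at least 1 (Hes1 in 6, Clu in 5, Dkk3 in 4). The members' median was -0.02 (0.09 without PBS 2, -0.14 without CNP 4), and the median of all genes was -0.0036. The 95% intervals bound what could have been missed: all 10 lay within 2-fold in either direction, as did 94.2% of all genes. Those of 6 members (Glul, Dkk3, Car14, Clu, Apoe and Hes1) lay within 1.5-fold, as did 65.3% of all genes. The groups did not separate for any member, where 0.287% of all genes showed no overlap.

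**Figure D1:**
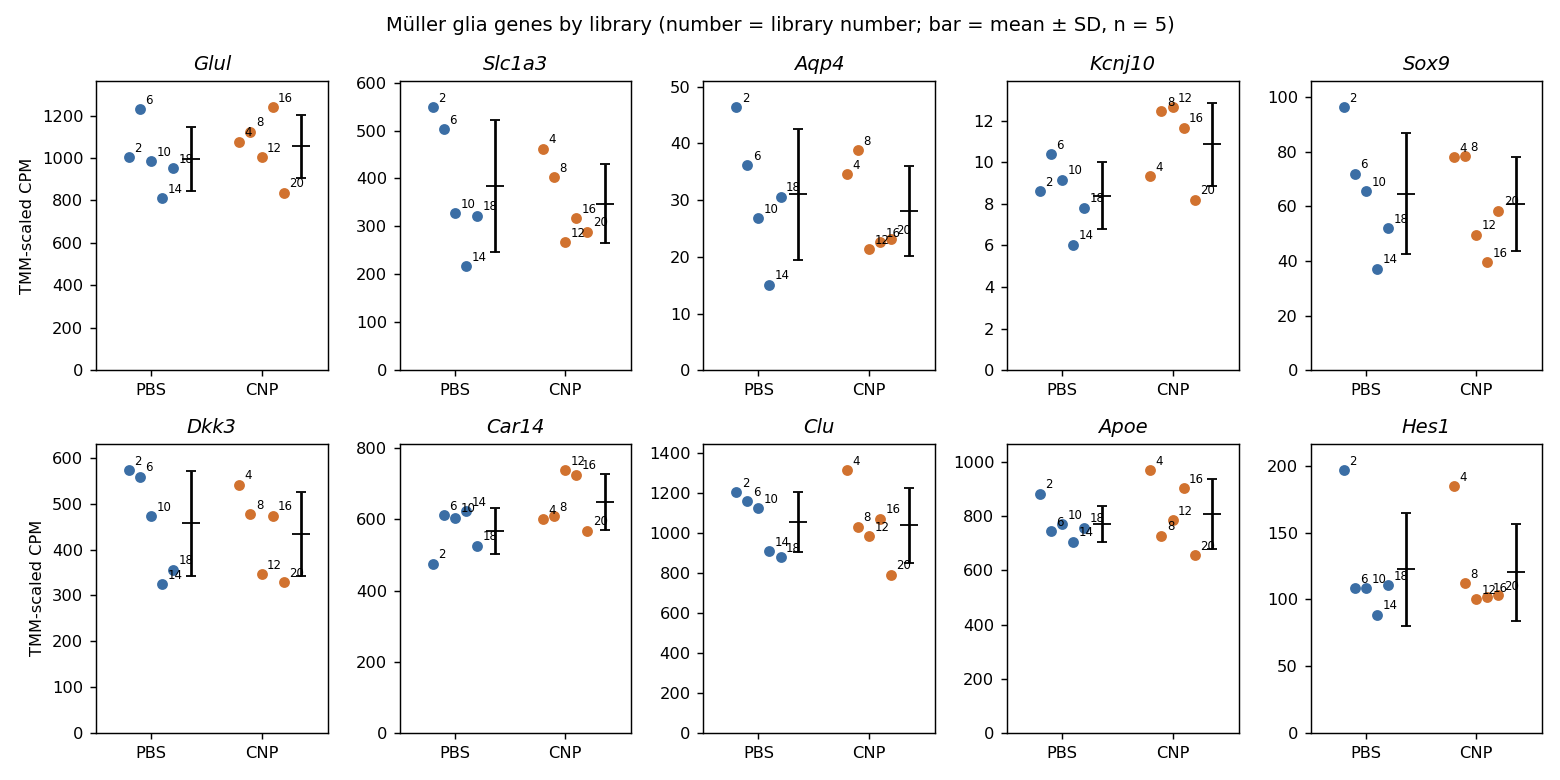
TMM-scaled CPM (y axis, from 0) of each member in the 5 PBS libraries (blue) and 5 CNP libraries (orange), with library numbers beside the points and mean ± SD as bars. The groups overlap in all 10 panels, and PBS 14 is the lowest library in 7 of them.

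Both genes of the glutamate cycle gave overlapping groups. Glul (ENSMUSG00000026473) measured 1005 in PBS 2, 1229 in PBS 6, 984 in PBS 10, 811 in PBS 14 and 951 in PBS 18 (CPM). Its CNP libraries measured 1076 in CNP 4, 1123 in CNP 8, 1003 in CNP 12, 1239 in CNP 16 and 836 in CNP 20 (CPM). The highest library (CNP 16) and the second highest (PBS 6) thus came from different groups. The Glul means were 996 ± 150.5 CPM with PBS and 1056 ± 149.6 CPM with CNP (SD, n = 5 per group), a log2 fold change of 0.08 (SE 0.14, 95% interval -0.21 to 0.38). Slc1a3 (ENSMUSG00000005360) measured 548 in PBS 2, 502 in PBS 6, 328 in PBS 10, 217 in PBS 14 and 323 in PBS 18 (CPM). The CNP libraries gave 462 in CNP 4, 403 in CNP 8, 268 in CNP 12, 317 in CNP 16 and 289 in CNP 20 (CPM). PBS 2 and PBS 6 were highest, PBS 14 lowest, and all CNP libraries lay between these. The Slc1a3 means were 384 ± 138 CPM with PBS and 348 ± 82.1 CPM with CNP (SD, n = 5 per group), a log2 fold change of -0.14 (SE 0.24, 95% interval -0.65 to 0.37). The interval of Slc1a3 was wider than that of Glul, and its libraries spread 2.53-fold from lowest to highest, against 1.53-fold.

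Other genes of glutamate handling were measured beside them. Of 14, 12 could be tested and 0 passed in either direction, with 2 positive and 10 negative values and a median of -0.06. The most abundant were the aspartate aminotransferase gene Got1 (430.4 CPM in PBS, 403 in CNP; -0.09) and the glutamine transporter gene Slc38a3 (161 and 152 CPM; -0.09).

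Kcnj10 had the largest positive fold change of the 10 members, on the fewest counts. Kcnj10 (ENSMUSG00000044708) measured 8.60 in PBS 2, 10.4 in PBS 6, 9.17 in PBS 10, 6.04 in PBS 14 and 7.81 in PBS 18 (CPM). With CNP, Kcnj10 measured 9.32 in CNP 4, 12.5 in CNP 8, 12.6 in CNP 12, 11.7 in CNP 16 and 8.20 in CNP 20 (CPM). Of the CNP libraries, 8, 12 and 16 lay above every PBS library, and 4 and 20 lay within the PBS range. The Kcnj10 means were 8.40 ± 1.62 CPM with PBS and 10.9 ± 1.99 CPM with CNP (SD, n = 5 per group), a log2 fold change of 0.35 (SE 0.18, 95% interval -0.05 to 0.74). Its unadjusted p was 0.0789. The interval leaves out a 2-fold rise and any fall below 0.969-fold. Counting error alone gave a coefficient of variation of 15.2% at its mean count, against 22.3% observed.

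Aqp4 (ENSMUSG00000024411) measured 46.4 in PBS 2, 36.2 in PBS 6, 26.8 in PBS 10, 15.1 in PBS 14 and 30.6 in PBS 18 (CPM). With CNP it was 34.5 in CNP 4, 38.8 in CNP 8, 21.4 in CNP 12, 22.6 in CNP 16 and 23.1 in CNP 20 (CPM). PBS 2 was highest and PBS 14 lowest, 3.07-fold apart, the widest range among the members, and the CNP libraries lay between. The Aqp4 means were 31.0 ± 11.5 CPM with PBS and 28.1 ± 8.0 CPM with CNP (SD, n = 5 per group), a log2 fold change of -0.15 (SE 0.26, 95% interval -0.71 to 0.41). Kcnj10 and Aqp4, which encode proteins of the same endfeet, thus had values of opposite sign, each with an interval that includes 0. Of 14 further genes of potassium and water handling and of the dystrophin complex that anchors both channels, 10 could be tested and 0 passed in either direction (5 positive, 5 negative, median -0.0058). The most abundant were the sodium pump subunit gene Atp1b2 (1857 CPM in PBS, 1794 in CNP; -0.05) and the water channel gene Aqp1 (161 and 163 CPM; 0.01).

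Car14 encodes a membrane-bound carbonic anhydrase. Car14 (ENSMUSG00000038526) measured 476 in PBS 2, 612 in PBS 6, 605 in PBS 10, 624 in PBS 14 and 526 in PBS 18 (CPM). In CNP libraries Car14 measured 601 in CNP 4, 609 in CNP 8, 739 in CNP 12, 726 in CNP 16 and 568 in CNP 20 (CPM). CNP 12 and CNP 16 stood above all other libraries and PBS 2 below them. The Car14 means were 569 ± 64.7 CPM with PBS and 649 ± 78.3 CPM with CNP (SD, n = 5 per group), a log2 fold change of 0.19 (SE 0.12, 95% interval -0.07 to 0.45). Of 16 further carbonic anhydrase, bicarbonate and lactate transport genes, 13 could be tested and 0 passed in either direction (5 positive, 8 negative, median -0.02). The most abundant were Bsg, which encodes the lactate transporter chaperone basigin (4781 CPM in PBS, 4812 in CNP; 0.01), and Car2 (1254 and 1239 CPM; -0.02).

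Apoe encodes apolipoprotein E, which carries lipid from glia to neurons. Apoe (ENSMUSG00000002985) measured 884 in PBS 2, 746 in PBS 6, 771 in PBS 10, 706 in PBS 14 and 757 in PBS 18 (CPM). The CNP values of Apoe were 971 in CNP 4, 729 in CNP 8, 785 in CNP 12, 903 in CNP 16 and 657 in CNP 20 (CPM). CNP 4 was highest and CNP 20 lowest, so the CNP group enclosed the PBS group. The Apoe means were 773 ± 66.5 CPM with PBS and 809 ± 128 CPM with CNP (SD, n = 5 per group), a log2 fold change of 0.07 (SE 0.12, 95% interval -0.20 to 0.34). Clu encodes clusterin, a secreted chaperone and apolipoprotein. Clu (ENSMUSG00000022037) measured 1202 in PBS 2, 1157 in PBS 6, 1124 in PBS 10, 908 in PBS 14 and 879 in PBS 18 (CPM). Clu levels with CNP were 1314 in CNP 4, 1030.4 in CNP 8, 984 in CNP 12, 1071 in CNP 16 and 791 in CNP 20 (CPM). The extremes again fell in CNP 4 and CNP 20. The Clu means were 1054 ± 149 CPM with PBS and 1038 ± 188 CPM with CNP (SD, n = 5 per group), a log2 fold change of -0.02 (SE 0.15, 95% interval -0.34 to 0.30). Of 16 further lipid genes, 12 could be tested and 0 passed in either direction (6 positive, 6 negative, median 0.02). The most abundant were the sterol exporter gene Abcg1 (329 CPM in PBS, 292 in CNP; -0.18) and the lysosomal cholesterol carrier gene Npc2, at 167 and 175 CPM (0.06).

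Sox9 and Hes1 are transcription factors that maintain glial identity, Hes1 as an effector of Notch. Sox9 (ENSMUSG00000000567) measured 96.3 in PBS 2, 72.0 in PBS 6, 65.5 in PBS 10, 37.1 in PBS 14 and 52.1 in PBS 18 (CPM). Sox9 with CNP measured 78.0 in CNP 4, 78.4 in CNP 8, 49.7 in CNP 12, 39.5 in CNP 16 and 58.4 in CNP 20 (CPM). PBS 2 was highest and PBS 14 lowest, with CNP 16 next to PBS 14. The Sox9 means were 64.6 ± 22.2 CPM with PBS and 60.8 ± 17.2 CPM with CNP (SD, n = 5 per group), a log2 fold change of -0.09 (SE 0.24, 95% interval -0.62 to 0.43). Hes1 (ENSMUSG00000022528) measured 197 in PBS 2, 108 in PBS 6, 108 in PBS 10, 88.5 in PBS 14 and 111 in PBS 18 (CPM). Hes1 in CNP libraries measured 185 in CNP 4, 112 in CNP 8, 100.3 in CNP 12, 102 in CNP 16 and 103 in CNP 20 (CPM). PBS 2 and CNP 4, 1 library of each group, stood far above their companions, which lay between 88.5 and 112 CPM. The Hes1 means were 123 ± 42.5 CPM with PBS and 120.4 ± 36.3 CPM with CNP (SD, n = 5 per group), a log2 fold change of -0.03 (SE 0.23, 95% interval -0.52 to 0.46). Of 25 further Notch, SOX and glial factor genes, 19 could be tested and 0 passed in either direction (9 positive, 10 negative, median -0.06). The most abundant were the Notch ligand gene Jag1 (157 CPM in PBS, 126 in CNP; -0.32) and Nfia (96.1 and 85.0 CPM; -0.18).

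Dkk3 encodes a secreted protein of the dickkopf family, whose founding members inhibit Wnt signalling. Dkk3 (ENSMUSG00000030772) measured 574 in PBS 2, 559 in PBS 6, 473 in PBS 10, 324 in PBS 14 and 356 in PBS 18 (CPM). After CNP, Dkk3 measured 542 in CNP 4, 477 in CNP 8, 347 in CNP 12, 474 in CNP 16 and 329 in CNP 20 (CPM). PBS 2 and PBS 6 were highest, and PBS 14 and CNP 20 lowest. The Dkk3 means were 457 ± 114 CPM with PBS and 434 ± 91.8 CPM with CNP (SD, n = 5 per group), a log2 fold change of -0.08 (SE 0.19, 95% interval -0.48 to 0.33). Of 13 further Wnt genes, 12 had a row under the symbol used, 8 could be tested and 0 passed in either direction (4 positive, 4 negative, median -0.03). The most abundant were the beta-catenin gene Ctnnb1 (54.1 CPM in PBS, 57.0 in CNP; 0.07) and Tcf7l2 (21.9 and 20.2 CPM; -0.14). No library held a count of Dkk1 (0 in total), and with all libraries pooled a level below 0.0677 CPM would go unseen (3 counts; counting error only).

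**Figure D2:**
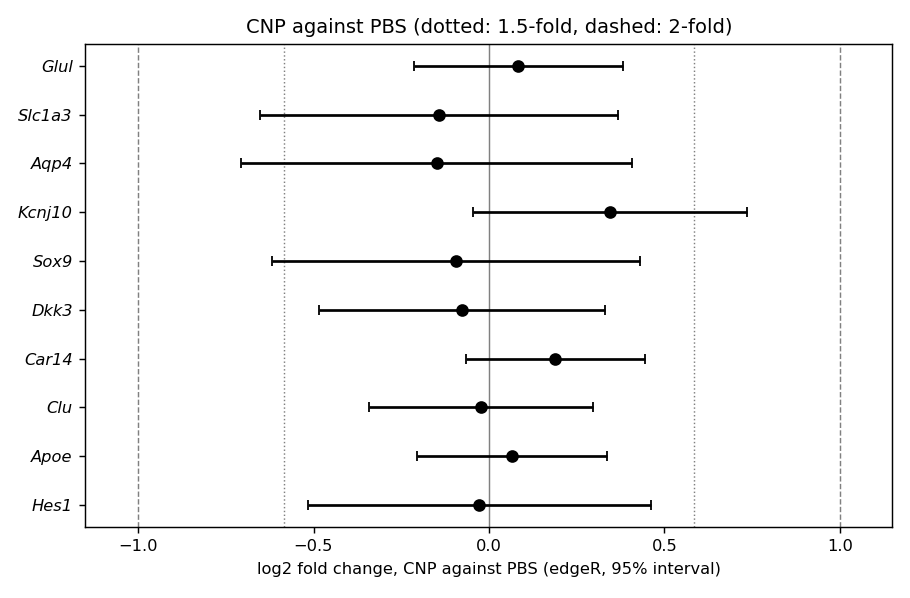
Log2 fold change of each member, CNP against PBS (x axis). Points carry bars for 95% intervals computed from the F statistic of edgeR's quasi-likelihood test. Every interval includes 0 and lies inside the dashed lines at 2-fold, and those of Slc1a3, Aqp4, Kcnj10 and Sox9 cross a dotted line at 1.5-fold.

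Further Müller glia markers and gliosis genes gave the same count. All 12 further Müller markers were tested and 0 passed (10 positive, 2 negative, median 0.05), with Dbi at 0.08 and Rlbp1 at 0.12. Of 13 gliosis genes 11 were tested and 0 passed (5 positive, 6 negative, median -0.05), with Stat3 at -0.06 and Gfap, the intermediate filament gene of reactive glia, at 0.08 (95% interval -0.39 to 0.54). Among the marker lists of other cells, 0 genes passed. The median log2 fold change was -1.34 over 6 lens genes, with wide intervals (Cryaa, the most abundant, -3.06 to 0.71), 0.81 over 3 macrophage genes, 0.38 over 6 pigment epithelium genes and -0.21 over 7 amacrine genes. It lay between -0.12 (horizontal cells) and 0.14 (pericytes) for the rod, cone, bipolar, ganglion, horizontal, astrocyte, microglia, endothelium and pericyte lists, and no test compared the lists. Macrophage genes summed to 8.51 to 15.1 CPM in PBS and 13.1 to 32.4 CPM in CNP. No gene of these lists was at 0 in all libraries, and their part in the members' values was not tested.

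The members differed in how much they varied between libraries. Over all 10 libraries the coefficient of variation was 32.1% for Aqp4, 30.7% for Hes1, 30.0% for Sox9 and 29.7% for Slc1a3. It was 22.3% for Kcnj10 and 22.1% for Dkk3. The abundant genes Clu (15.3%), Glul (14.1%), Car14 (13.1%) and Apoe (12.4%) varied least. At their mean counts, counting error alone gives 8.48% for Aqp4, 5.82% for Sox9, 4.20% for Hes1 and 1.44% to 2.41% for the abundant others. The biological coefficient of variation estimated by edgeR had a median of 20.1% over the members and 15.8% over all genes tested, and 7 members exceeded the latter.

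**Figure D3:**
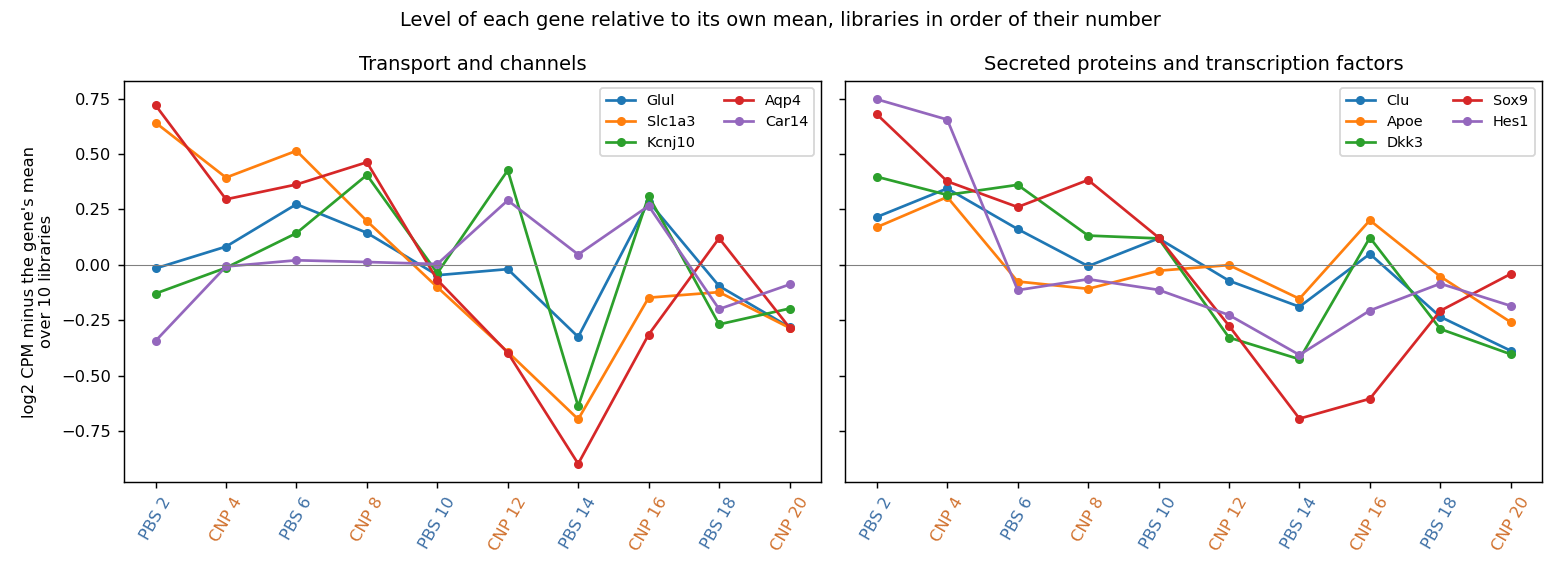
Log2 CPM of each member minus its own mean over the 10 libraries (y axis), with libraries along the x axis in order of their number (blue labels PBS, orange labels CNP; lines join the values of 1 gene). Slc1a3, Aqp4 and Sox9 are high in the first 4 libraries and lowest in PBS 14, Hes1 peaks in PBS 2 and CNP 4, and Car14 is lowest in PBS 2.

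The widely varying members moved together. Pearson's r of log2 CPM over the 10 libraries was positive for 39 of the 45 pairs of members, with a median of 0.53, and the median over all pairs of tested genes was 3e-04. With library totals in place of TMM the medians were 0.78 and 0.191. An r above 0.5 was found in 55.6% of member pairs and 16.3% of all pairs (21.4% for genes at 20 CPM or more). With library totals these shares were 82.2% of member pairs and 27.4% of all pairs. Permutation tests were run on the member pairs only. By both r and Spearman's rho, 9 pairs passed an adjusted p of 0.05 (two-sided permutation tests, Benjamini-Hochberg over the 45 pairs), and all 9 were positive. With library totals the count was 23, which included the 9. With group means subtracted the median r was 0.55 and the count was 4, all among the 9. That test shuffled libraries only within their group, unlike the others, so its count is not like for like with the 9. Slc1a3 and Aqp4 were closest, with r = 0.94 (permutation p = 4e-05, adjusted 0.0018) and rho = 0.94 (p = 0.00019, adjusted 0.0036). Without PBS 2 and PBS 6, the libraries farthest from the median of Slc1a3, their r was 0.93. Aqp4 and Sox9 had r = 0.91 (permutation p = 0.00035, adjusted 0.00525) and rho = 0.94 (p = 0.00024, adjusted 0.0036), and r = 0.81 without PBS 2 and PBS 14. Dkk3 and Clu had r = 0.90 (permutation p = 0.00034, adjusted 0.00525) and rho = 0.85 (p = 0.00295, adjusted 0.0163), and r = 0.87 without PBS 14 and CNP 20. Slc1a3 and Dkk3 had r = 0.90 (permutation p = 0.00063, adjusted 0.00709) and rho = 0.95 (p = 5e-05, adjusted 0.00225), and r = 0.84 without PBS 2 and PBS 6. The other 5 joined Slc1a3 with Sox9 and Hes1, Aqp4 with Dkk3 and Hes1, and Sox9 with Hes1, at r between 0.74 and 0.87. For Aqp4 and Hes1, r was 0.50 without PBS 2 and PBS 14.

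Kcnj10 and Aqp4, neighbours on the endfeet, did not pass as a pair (r = 0.32, permutation p = 0.364, adjusted 0.482, and rho = 0.13, p = 0.732, adjusted 0.784). Their r was 0.57 with library totals and -0.04 without PBS 2 and PBS 14. It ran from -0.20 to 0.53 with 1 library left out in turn. With 20 to 62 counts of Kcnj10 per library, these values leave the pair undecided. Kcnj10 came closest to Glul (r = 0.76, permutation p = 0.0111, adjusted 0.0454; rho = 0.75, p = 0.018, adjusted 0.0539), with r = 0.56 without PBS 14 and CNP 16. Car14 ran against 6 of the other 9, down to r = -0.59 with Sox9 (permutation p = 0.0688, adjusted 0.143; rho = -0.59, p = 0.0804, adjusted 0.181), but with library totals in place of TMM it was negative with Hes1 only (r = -0.07). Of the 9 passing pairs, 4 remained without PBS 2 and 4 without PBS 14, and 5 without CNP 20 or without CNP 12. Within the 5 libraries numbered up to 10 the median r of the 45 pairs was 0.25, and within the 5 above it was 0.48.

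**Figure D4:**
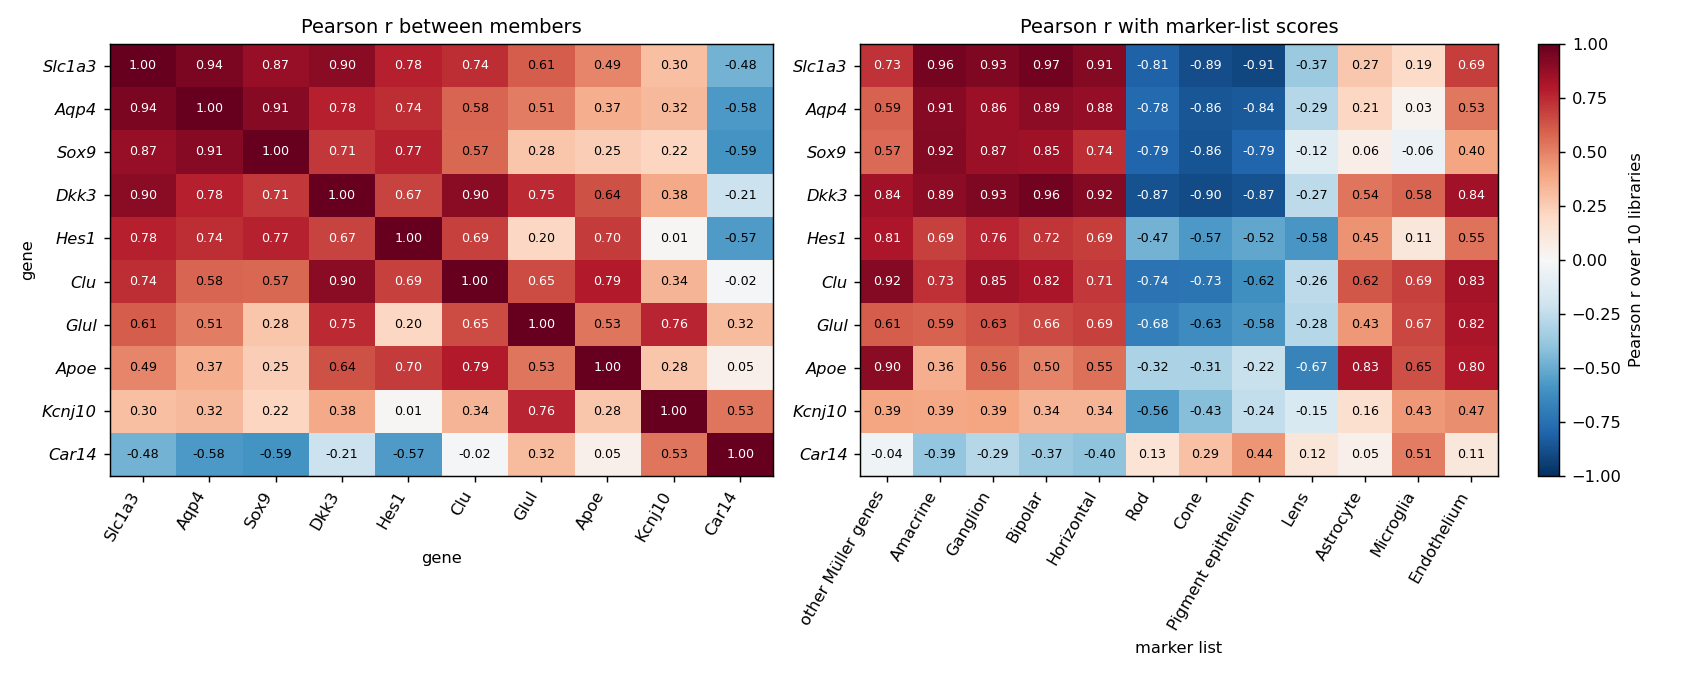
Pearson's r over the 10 libraries between the members (left; x and y axes list genes) and between each member and the mean log2 CPM of marker lists (right; x axis lists cell types). Red is positive and blue negative. Slc1a3, Aqp4, Sox9 and Dkk3 are positive with inner retinal neurons and negative with rods, cones and pigment epithelium, and Car14 is weakly the reverse.

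The shared pattern ran with the markers of other retinal cells. The mean log2 CPM of the 10 members was 8.01 in PBS 2, 7.98 in CNP 4, 7.89 in PBS 6, 7.86 in CNP 8, and from 7.27 (PBS 14) to 7.70 in the other 6. Over the 10 libraries it had r = 0.96 with the mean of ganglion cell markers, 0.95 with bipolar, 0.93 with amacrine and 0.90 with horizontal cell markers. With rod markers r was -0.87, with cone markers -0.89 and with pigment epithelium markers -0.81. With the further Müller markers it was 0.86, with endothelium 0.79, with microglia 0.40, with lens -0.39 and with pericytes -0.09. It was 0.77 with the log2 total count and 0.89 with the TMM factor. These are descriptions of 10 points that share libraries, depth and scaling, and the part of cell composition or depth in the members' variation was not tested.

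The members differed in this respect. Slc1a3 and Dkk3 had close profiles, each highest with bipolar markers (r = 0.97 and 0.96). With amacrine markers r was 0.96 and 0.89, and with ganglion cell markers 0.93 for both. With rod markers r was -0.81 and -0.87, and with pigment epithelium markers -0.91 and -0.87. Clu and Apoe followed the further Müller markers most closely (r = 0.92 and 0.90), and Apoe also the astrocyte list (0.83), with r = -0.32 for rods. Car14 had r = 0.70 with macrophage markers (0.54 with group means subtracted), 0.51 with microglia and 0.44 with pigment epithelium markers. With the rod score regressed out of each member, an alternative added after the data were seen, the median r of the 45 pairs was 0.20, with 29 positive. Slc1a3 and Aqp4 then had r = 0.85, and 1 pair passed, which was not among the 9.

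**Figure D5:**
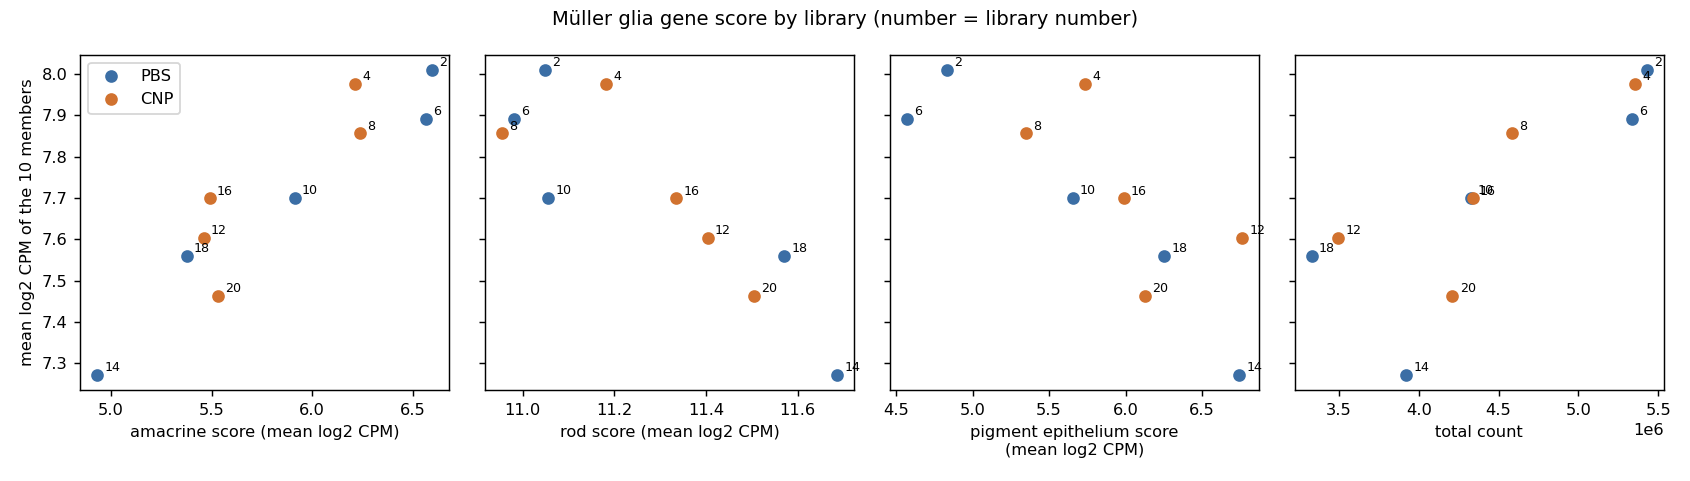
Mean log2 CPM of the 10 members (y axis) against the mean log2 CPM of amacrine, rod and pigment epithelium markers and against the total count (x axes), 1 point per library (blue PBS, orange CNP). The score is higher where amacrine markers and total count are higher and lower where rod and pigment epithelium markers are higher, and PBS 14 lies at the low end.

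Library number went with these levels as well. Slc1a3 ranged from 328 to 548 CPM in the 5 libraries numbered up to 10 (3 PBS, 2 CNP) and from 217 to 323 CPM in the 5 numbered above 10 (2 PBS, 3 CNP). Sox9 likewise showed no overlap, at 65.5 to 96.3 and 37.1 to 58.4 CPM. These were 2 of the 10 members, and 20.6% of all tested genes showed no overlap between the same sets, so the share is at the background. Total counts were 4325794 to 5428697 in the first set and 3328518 to 4337612 in the second. The labels do not say whether the numbers mark a processing order. With this split as a covariate the median member log2 fold change was 0.07, and 0 members were called (edgeR). Within the sets, the difference in mean log2 CPM of Kcnj10, CNP minus PBS, was 0.20 up to number 10 and 0.60 above it, and that of Slc1a3 was -0.06 and 0.13.

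Genes outside the list tracked the member mean closely. Of all other tested genes, Rph3a (r = 0.99), which encodes a synaptic vesicle protein, was nearest over the 10 libraries. Spock2, which encodes an extracellular proteoglycan, Arap1 and the glial transcription factor gene Sox8 followed, each at r = 0.98, and Manea, also at 0.98. Rph3a measured 96.3 CPM in PBS 2 and 43.5 CPM in PBS 14, and Sox8 23.1 and 4.53 CPM. Nearest to Glul were Etv4 (r = 0.96, at 2.43 CPM on average), Stbd1 (0.94), a glycogen-binding protein gene, and C9orf72 (0.92). Nearest to Hes1 were the immediate early genes Btg2 (r = 0.96) and Egr1 (0.95) and the trafficking gene Kdelr1 (0.96). Egr1 measured 353 CPM in PBS 2 and 314 CPM in CNP 4, the libraries where Hes1 was high, and 129.9 to 166 CPM in the other 8. Without those 2 libraries r with Hes1 was 0.22 for Egr1, 0.70 for Btg2 and 0.69 for Kdelr1. These genes were picked for their r, which is therefore a description.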

How the data were processed

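Per the labels' protocols, the primers that copied the poly(A) RNA of the 10 neuroretinas carried barcodes and molecular identifiers. The deposited values are whole-number counts per Ensembl gene, made with STAR and STARsolo on GRCm39, per the submitters' processing notes; for versions, annotation, strand and collapsing of identifiers, the sources used here give nothing. Symbols were matched for 51880 of 57186 IDs, and rows without one held 0.881% of counts.

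Groups came from the labels. Genes passing filterByExpr (minimum count 10, minimum total 15) were tested with edgeR 4.0.16 in R 4.3.3 (TMM, quasi-likelihood test, Benjamini-Hochberg over 11499 genes), with DESeq2 1.42.0 and limma 3.58.1 as alternatives. Correlations used log2 CPM (prior count 2) and 100000 permutations. Exon lengths came from GENCODE on GRCm38, another build than the counts. The fits were also run on simulated counts drawn for each gene independently. Those lack the co-variation between genes seen here, so they cannot vouch for the calls or intervals. Named genes were the 10 members, the 2 most abundant tested genes of each companion list, the leading markers and the genes nearest in r; Dkk1 was chosen after its values were seen. The members and lists were chosen with earlier results of these data known.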

Additional observations from a re-analysis of the deposited data

Results flagged for a closer look

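Hes1 stood apart in 1 library of each group. In PBS 2 it measured 197 CPM, and the next PBS library 111 CPM. In CNP 4 it measured 185 CPM, and the next CNP library 112 CPM. In each group of 5, the gap from the highest library to the next took more of the whole range than Dixon's 95% critical value of 0.710 allows. These were 2 of 24 groups examined, and chance marks about 1 in 20. The immediate early gene Egr1 was also high in the same libraries (353 and 314 CPM), and its part in the Hes1 values was not tested.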

How the results depend on the processing

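Over 20 alternatives to the comparison of CNP with PBS, 0 genes and 0 members were called. The members' adjusted p ranged from 0.928 to 1.0. All 280 values compared were labelled unchanged. For calls and their counts that means the same side of the threshold. For the median member log2 fold change it means a shift smaller than the average group SD of the members' mean log2 CPM. Only Glul, Kcnj10 and Car14 had the same sign in all 20. The median member log2 fold change ranged from -0.14 without CNP 4 to 0.09 without PBS 2, so its sign was not fixed. Kcnj10 reached an unadjusted p under 0.05 in 4 alternatives (smallest 0.0300, edgeR with a rod marker covariate chosen after seeing the data). With library totals the median r of member pairs was 0.784 and 23 pairs passed. With group means subtracted the median was 0.550 and 4 passed, in a test that shuffled libraries only within their group. With the rod score regressed out, chosen after seeing the data, the median was 0.203 and 1 passed. Leaving out each library in turn gave medians of 0.458 to 0.646 and 4 to 11 passing pairs. Without length scaling, places in the order of abundance were 1 for Clu, 3 for Apoe, 6 for Slc1a3 and 7 for Hes1. The cause of these shifts was not tested, beyond the fewer libraries in each left-out fit and the within-group shuffling named above. No paired analysis was possible because the groups share no replicate numbers. Depth limits Kcnj10 most, at 20 to 62 counts per library.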
